A study of Mus musculus with 4 samples.

Results

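The genes described here encode the T cell antigen receptor complex and the proteins that carry its signal over the first steps inside the cell. The set held 36 genes chosen by name for their known role, and 34 of the 19087 mouse genes with a feature of their own on the array belonged to it. Lck and Mapk3 were not analysed here because no feature was assigned to them. The 34 genes were read by 99 features, between 1 and 13 per gene.

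The samples were CD4+CD25- T lymphocytes purified from the spleens of C57BL/6 mice and stimulated for 12 h with anti-CD3 and anti-CD28, antibodies that engage the receptor complex itself and the costimulatory receptor CD28. One group came from db/db mice, which carry the leptin receptor mutation on both alleles, and the other from db/+ mice, which carry it on 1 allele and were labelled wild type. The sample labels call the db/db phenotype leptin-deficient and the series title calls it leptin-receptor-deficient. In each of 2 independent experiments, per the series text, 1 pool was made per group, so each group had 2 pools. Each pool combined cells of 3 mice, and each pool was read on 1 one-colour Agilent array, so that 4 arrays set the precision of every value. All cells of both groups had been stimulated, and no unstimulated cells were analysed here. These were bulk samples, in which fewer cells of a type and less RNA per cell cannot be told apart.

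When peptide bound to an MHC molecule engages the antigen receptor, the coreceptor-bound kinase LCK phosphorylates the cytoplasmic tails of the CD3 chains and CD247, and ZAP70 docks there. ZAP70 phosphorylates the adaptors LAT and SLP-76 (encoded by Lcp2), which assemble phospholipase C gamma 1, the TEC family kinases that activate it, VAV1 and GADS (encoded by Grap2). Phospholipase C then feeds the calcium, calcineurin and NFAT branch, and, through diacylglycerol, the RASGRP1 and RAS branch and the protein kinase C theta, BCL10, MALT1 and NF-kB branch.

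Some stretches of neighbouring spots disagreed between arrays by more than the rest and are called misread stretches below. They held 24.5% of the gene features and 19 of the 99 features of these genes, or 19.2%, which left 80 features of 29 genes outside them. Cd2, Cd5, Lcp2, Vav1 and Ptpn6 had no feature outside a misread stretch. For each gene the values below are the normalized log2 intensities of its brightest readable feature, that is, one outside misread stretches, and all 29 such features lay above 7.55, the median of all gene features, in at least 1 pool. That median is used as the background level. Each p is from limma with Benjamini-Hochberg adjustment, and a feature was called at an adjusted p below 0.05. Where a pair of adjusted p is given, the first comes from the fit to 33709 gene features and the second from a fit limited to the 25467 that lay outside misread stretches.

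In db/db cells, transcripts of the TEC family kinases Txk and Tec, the adaptor Grap2, the phospholipase Plcg1 and the RAS exchange factor Rasgrp1 were higher, by 1.90-fold to 2.67-fold. Transcripts of the receptor-associated protein Trat1, the kinase Zap70 and the transcription factor Nfatc1 were lower, by 1.46-fold to 1.98-fold. These 8 genes were the ones called by the second fit. Over all gene features only Plcg1 passed outside misread stretches, and the other called feature, that of Cd5, lay inside one. The background of that first fit was 0.997% of gene features called in either direction, or 336 of 33709, against 2 of 99 here. In the second fit 9 of the 80 features were called higher and 3 lower, where 6.69% and 1.51% of all features outside misread stretches were. By gene, 5 of 29 were called higher and 3 of 29 lower, where 12.8% and 2.68% of the 9182 genes above background were.

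**Figure D1:**
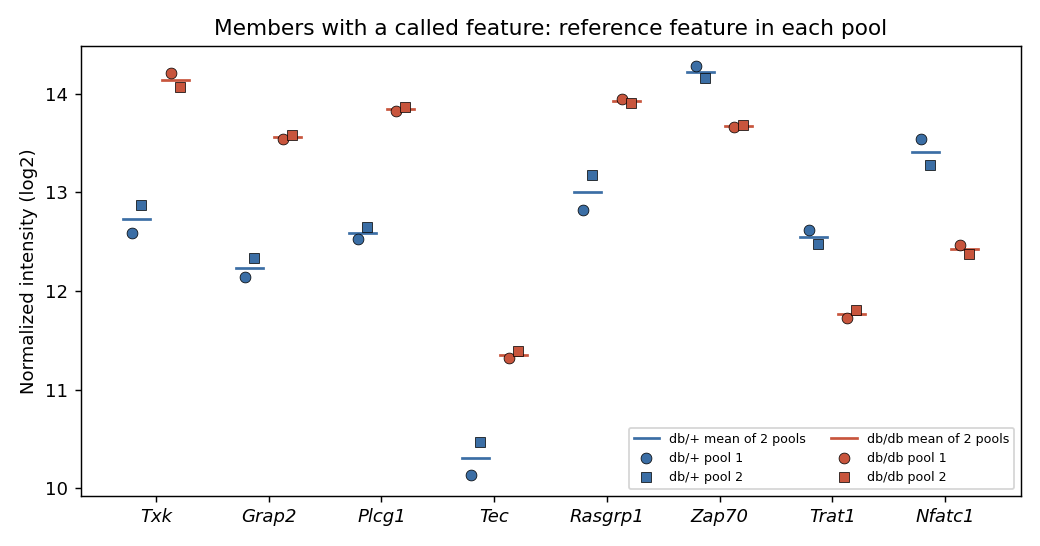
Normalized log2 intensity of the brightest feature outside misread stretches in each of the 4 pools, for the 8 genes with a called feature; circles are pool 1, squares pool 2 and bars group means. Both db/db pools lie above both db/+ pools for Txk, Grap2, Plcg1, Tec and Rasgrp1, and below both for Zap70, Trat1 and Nfatc1.

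In 16 of the 29 genes both db/db pools lay above both db/+ pools, in 8 they lay below, and in 5 the groups overlapped. Among all genes above background 48.1% were apart with db/db higher and 18.1% with db/db lower, so separation by itself was common. The median log2 difference, db/db minus db/+, was 0.30 over the 29 genes and 0.20 over the 9182 genes above background. The median size of the difference, whatever its sign, was 0.56 against 0.36. The median log2 intensity of the features was 13.38 against 11.66.

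**Figure D2:**
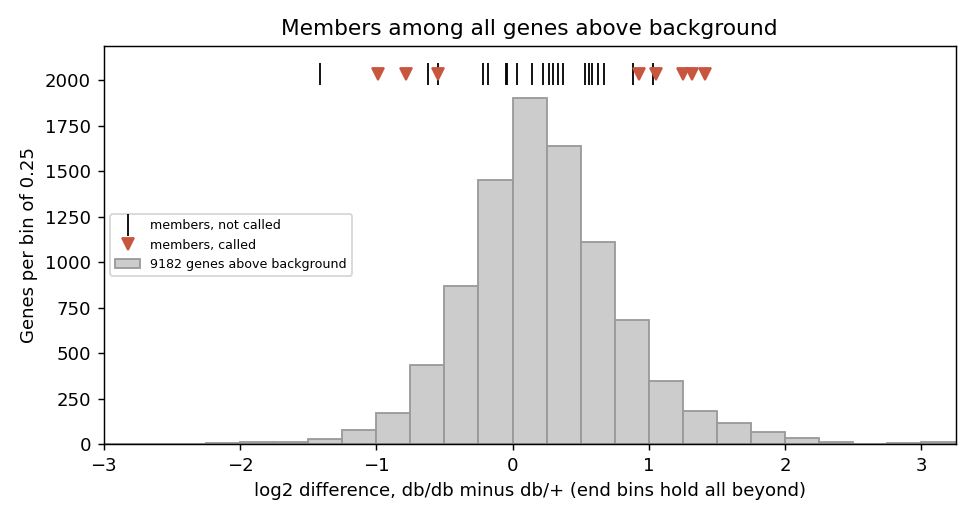
Number of genes above background in each 0.25-wide bin of the log2 difference, db/db minus db/+ (grey bars, 9182 genes), with the 29 genes of the receptor pathway that had a feature outside misread stretches marked above it (red triangles called in the second fit, black ticks not called). The 5 called rises lie at 0.93 to 1.41 and the 3 called falls at -0.99 to -0.55, on both sides of the bulk of genes.

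The offset of 0.20 depended on the scaling. When the arrays were normalized again without the misread stretches, the median difference of genes above background was 0.00 by quantile normalization, 0.00 by median scaling and 0.03 by cyclic loess, and that of the 29 genes was 0.07, 0.09 and 0.10. The split of called features of these genes moved with it, from 9 higher and 3 lower to 9 and 9, 8 and 6, and 11 and 7. Over all gene features it moved from 1705 higher and 384 lower to 1101 and 826, 1122 and 830, and 1084 and 658. By gene the split of the brightest features was 5 higher and 3 lower, 4 and 4, and 6 and 2 in these 3 scalings. Under median scaling limma gave every feature 1 shared spread, and the 4 lower genes included Cd6, whose difference was carried by 1 pool. Of the genes above background 8.36%, 8.42% and 8.48% were called higher in the 3 scalings, and 5.57%, 5.52% and 4.47% lower. Txk, Grap2 and Plcg1 were called higher and Trat1 and Nfatc1 lower in all 3. With any 1 of the 4 arrays left out, limma called 0 features in either fit, while 24 to 32 features of these genes, and 4208 to 7565 of all gene features, had an unadjusted p below 0.05.

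**Figure D3:**
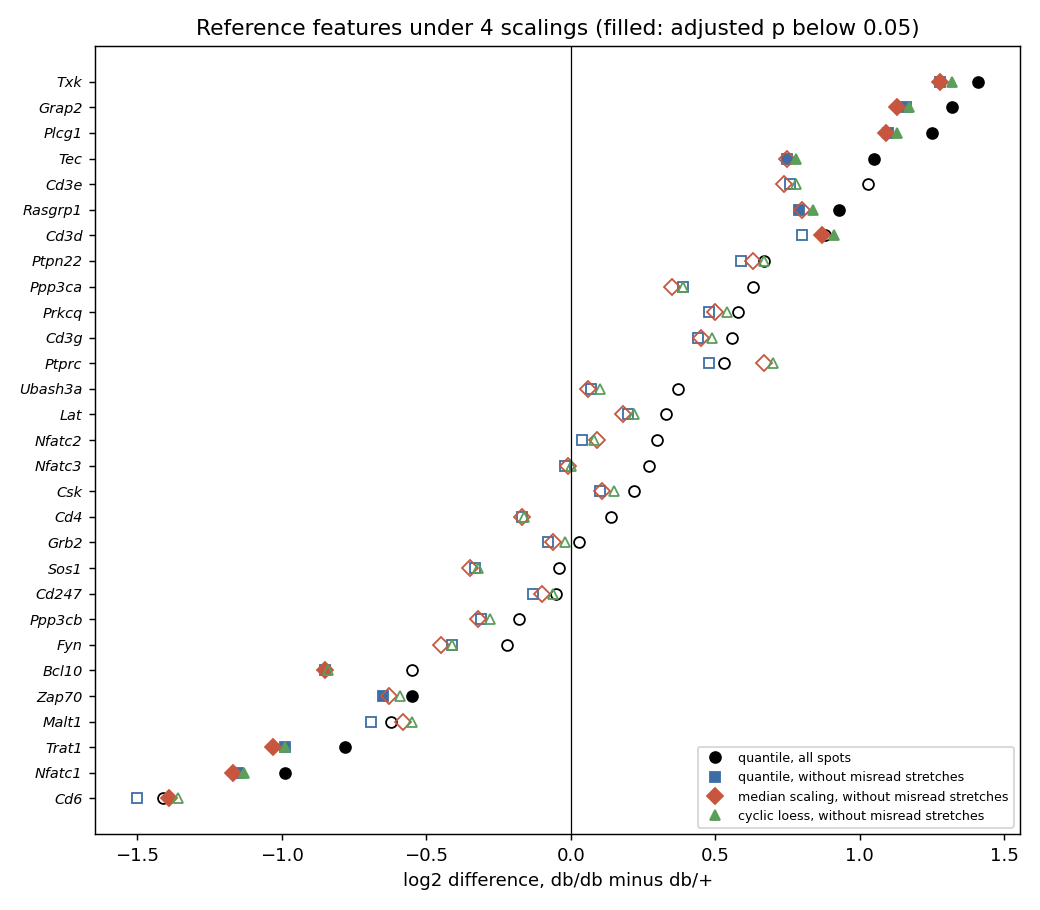
The log2 difference, db/db minus db/+, of the brightest feature of each of 29 genes as reported (black circles) and after 3 scalings that left the misread stretches out (coloured symbols); filled symbols had an adjusted p below 0.05. Rescaling moved most genes to the left, and Txk, Grap2 and Plcg1 stayed above 1 in the 3 rescaled sets. Nfatc1 and Cd6 lay below -1 in these sets, and 1 pool carried the difference of Cd6.

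The sequences around the annotated starts of the called genes are shown because Txk and Tec, 2 kinases of the same family, are neighbours on chromosome 5 with no other protein-coding gene between them, and their transcripts were higher together. Each window runs from 250 bases before to 50 bases after the start, 5′ to 3′ on the gene's strand, from RefSeq on GRCm38.p6, where 29 of the 36 genes had a window. Capitals mark matches on either strand to TTCNNNGAA (STAT), TGANTCA (AP-1), GGAAAA (NFAT), CCGGAA (ETS), TGTGGT (RUNX) and GGGCGG (SP1). Nfatc1 is named only.
Txk, at chr5:72752728-72753027 on the minus strand: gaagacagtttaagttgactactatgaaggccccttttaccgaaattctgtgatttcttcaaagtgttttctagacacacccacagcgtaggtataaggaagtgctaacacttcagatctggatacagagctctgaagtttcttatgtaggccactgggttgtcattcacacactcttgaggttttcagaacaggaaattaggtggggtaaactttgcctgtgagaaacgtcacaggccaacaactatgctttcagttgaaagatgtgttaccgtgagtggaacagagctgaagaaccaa
Tec, at chr5:72868399-72868698 on the minus strand: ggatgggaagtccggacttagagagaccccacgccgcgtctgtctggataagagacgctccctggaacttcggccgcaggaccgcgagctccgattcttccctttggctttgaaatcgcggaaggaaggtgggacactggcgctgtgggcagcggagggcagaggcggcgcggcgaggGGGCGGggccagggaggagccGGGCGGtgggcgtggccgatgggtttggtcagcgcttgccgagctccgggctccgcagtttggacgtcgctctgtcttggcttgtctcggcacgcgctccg
Grap2, at chr15:80623233-80623532 on the plus strand: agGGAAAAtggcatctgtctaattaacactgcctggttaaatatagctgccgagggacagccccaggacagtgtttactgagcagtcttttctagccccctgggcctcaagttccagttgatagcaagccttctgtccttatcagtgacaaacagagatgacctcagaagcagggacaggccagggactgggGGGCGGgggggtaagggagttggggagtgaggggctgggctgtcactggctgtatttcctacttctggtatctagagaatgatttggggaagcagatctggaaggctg
Plcg1, at chr2:160731060-160731359 on the plus strand: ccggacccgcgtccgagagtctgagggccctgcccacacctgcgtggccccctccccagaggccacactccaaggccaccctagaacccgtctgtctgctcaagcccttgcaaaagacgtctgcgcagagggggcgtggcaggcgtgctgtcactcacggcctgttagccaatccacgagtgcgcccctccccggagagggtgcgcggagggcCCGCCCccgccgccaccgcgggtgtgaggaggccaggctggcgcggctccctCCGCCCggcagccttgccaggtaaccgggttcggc
Rasgrp1, at chr2:117342828-117343127 on the minus strand: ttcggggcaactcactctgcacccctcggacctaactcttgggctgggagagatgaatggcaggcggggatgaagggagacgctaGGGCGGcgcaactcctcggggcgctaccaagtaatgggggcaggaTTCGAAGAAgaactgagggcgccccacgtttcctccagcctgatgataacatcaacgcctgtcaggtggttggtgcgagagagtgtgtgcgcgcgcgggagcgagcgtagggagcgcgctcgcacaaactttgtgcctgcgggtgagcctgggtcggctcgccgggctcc
Trat1, at chr16:48772013-48772312 on the minus strand: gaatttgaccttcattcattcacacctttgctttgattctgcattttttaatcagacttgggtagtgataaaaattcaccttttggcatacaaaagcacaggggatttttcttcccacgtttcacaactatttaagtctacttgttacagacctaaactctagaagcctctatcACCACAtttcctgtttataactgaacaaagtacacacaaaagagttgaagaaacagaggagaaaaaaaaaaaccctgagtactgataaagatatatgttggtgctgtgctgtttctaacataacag
Zap70, at chr1:36761548-36761847 on the plus strand: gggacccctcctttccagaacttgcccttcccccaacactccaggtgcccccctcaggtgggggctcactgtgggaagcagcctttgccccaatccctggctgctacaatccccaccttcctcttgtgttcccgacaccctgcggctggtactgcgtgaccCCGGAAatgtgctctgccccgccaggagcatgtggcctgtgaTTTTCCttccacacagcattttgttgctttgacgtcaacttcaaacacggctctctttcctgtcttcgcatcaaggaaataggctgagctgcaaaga

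The printed windows of the neighbouring pair did not share a match. The printed Txk window, the first of 2 in the RefSeq table, held none of the motifs, and the Tec window held 2 matches to GGGCGG. Plcg1 held 2 matches to GGGCGG, Grap2 1 to GGGCGG and 1 to GGAAAA, and Rasgrp1 1 to GGGCGG and 1 to TTCNNNGAA. Of the lower genes, Trat1 held 1 match to TGTGGT, and the first of 3 Zap70 windows held 1 to GGAAAA and 1 to CCGGAA. Over the 32851 windows of all genes, GGGCGG was found in 35.7%, GGAAAA in 23.4%, TGTGGT in 16.8%, CCGGAA in 14.9%, TTCNNNGAA in 8.30% and TGANTCA in 7.81%. In the 39 windows of these genes the shares were 38.5%, 17.9%, 17.9%, 7.69%, 7.69% and 0%. A match of this kind is a run of letters and not evidence of binding.

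Within the receptor complex, the 3 CD3 chain genes read higher in every db/db pool than in any db/+ pool, but none of them was called. Cd3d, Cd3e and Cd3g are neighbours on chromosome 9, and their proteins pair to form the signalling dimers of the receptor. Cd3d read 13.87 (pool 1) and 14.27 (pool 2) in db/+ cells, against 15.04 and 14.85 in db/db cells, a difference of 0.88 in log2 (95% interval 0.42 to 1.33; adjusted p = 0.135 and 0.0554, limma). It was called higher in 2 of the 3 rescaled sets. Cd3e read 10.43 and 11.07 in db/+ and 11.61 and 11.95 in db/db, a difference of 1.03 (0.35 to 1.71; adjusted p = 0.196 and 0.0884). Its second feature differed by 0.47, and by only 0.18 to 0.21 in the 3 rescaled sets, where the brightest differed by 0.74 to 0.78. Cd3g read 13.35 and 13.77 in db/+ and 13.89 and 14.35 in db/db, a difference of 0.56 (-0.04 to 1.16; adjusted p = 0.358 and 0.225). On the brightest feature of all 3 genes db/+ pool 1 was the lowest of the 4 pools. For Cd3g the SD within a group was 0.30 in db/+ and 0.32 in db/db (n = 2).

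Cd247, the zeta chain with the longest signalling tail of the complex, did not share that order. It read 14.35 and 14.40 in db/+ and 14.27 and 14.39 in db/db, and the groups overlapped (difference -0.05, 95% interval -0.32 to 0.22; adjusted p = 0.822 and 0.834). Its other 3 features lay between -0.44 and -0.06 and none was called in either fit. The one at -0.44 was called lower in 1 of the 3 rescaled sets, by quantile normalization (difference -0.74; adjusted p = 0.0495). Trat1, which encodes the receptor-associated transmembrane adaptor TRIM, read 12.62 and 12.48 in db/+ and 11.73 and 11.81 in db/db. Both db/db pools were below both db/+ pools, by 0.78 in log2 or 1.71-fold (95% interval -1.06 to -0.49; adjusted p = 0.0783 and 0.0302). Its second feature differed by -0.68 (adjusted p = 0.179 and 0.0837), and both features were called lower in each rescaled set.

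Cd4 encodes the coreceptor by which the cells were purified, and none of its features was called. Its brightest feature read 9.67 and 9.98 in db/+ and 9.94 and 9.99 in db/db, and the groups overlapped (difference 0.14, 95% interval -0.23 to 0.51; adjusted p = 0.659 and 0.624). The other 10 features, of the same transcript accession, ranged from 6.40 to 8.29, around the background level of 7.55. In 8 of these 10 both db/db pools lay above both db/+ pools, in 1 below, and in 1 the groups overlapped, with differences of -0.61 to 0.40. The sign of the brightest feature's difference turned under every rescaling, to between -0.17 and -0.16, and the 8 others outside misread stretches then lay between -0.15 and 0.27. Thy1, a general T cell marker, read 12.45, 12.74, 14.23 and 14.03 over the 4 pools in the same order (adjusted p = 0.0627 and 0.0188), and the costimulatory receptor Cd28 read 12.79, 13.16, 12.83 and 12.87.

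The accessory receptors of the set were mostly unreadable. The single features of Cd2, an adhesion receptor, and Cd5, an inhibitory receptor, lay in misread stretches. Cd2 read 14.24, 14.44, 14.63 and 14.41 in the 4 pools. Cd5 read 14.91 and 14.58 in db/+ and 11.14 and 10.73 in db/db, which was called lower over all features (difference -3.82; adjusted p = 0.0385), but with no feature elsewhere to set beside it the value is given only as it stands. Cd6, a relative of Cd5, averaged 14.97 ± 0.06 (SD, n = 2) in db/+ and read 14.78 and 12.33 in the db/db pools, so that 1 pool carried its difference of -1.41 (95% interval -3.58 to 0.76; adjusted p = 0.506 and 0.382). Cd6 was called lower in 1 of the 3 rescaled sets, by median scaling (limma adjusted p = 3.36e-05), where every feature shared 1 spread. Its other feature was at background.

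Among the tyrosine kinases, the TEC family members were higher in db/db and Zap70 was lower. Txk read 12.59 and 12.87 in db/+ and 14.21 and 14.07 in db/db. The pools of the 2 groups were far apart relative to their spread, with means of 12.73 ± 0.20 and 14.14 ± 0.10 (SD, n = 2), a 2.67-fold higher level (95% interval of the log2 difference 1.05 to 1.78; adjusted p = 0.0633 and 0.0197). Its second feature differed by 1.19 (adjusted p = 0.0613 and 0.0192), and the brightest was called with differences of 1.28 to 1.32 in all 3 rescaled sets.

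Tec, the founding member of the family, read 10.13 and 10.47 in db/+ and 11.32 and 11.39 in db/db, 2.07-fold higher (95% interval 0.66 to 1.44; adjusted p = 0.0878 and 0.0305). Its second feature, dimmer at 7.61 and 7.52 in db/+, read 8.82 and 9.17 in db/db and differed by 1.43 (adjusted p = 0.0676 and 0.0212). Both Tec features were thus higher in both db/db pools, while the brightest was called in 2 of the 3 rescaled sets, with differences of 0.75 to 0.78.

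Zap70, the kinase that docks on phosphorylated CD3 and CD247 tails, had 1 feature. It read 14.28 and 14.16 in db/+ and 13.66 and 13.68 in db/db, 1.46-fold lower (95% interval -0.81 to -0.28; adjusted p = 0.101 and 0.0476). The 2 groups were apart, but the call was close to the threshold and held in 1 of the 3 rescaled sets, where adjusted p ran from 0.0389 to 0.189. Fyn, a SRC family kinase that acts beside LCK, was read by 8 features outside misread stretches, all of 1 transcript accession. All 8 differed in the same direction, by -0.59 to -0.14, and none was called. The brightest read 12.84 and 12.80 in db/+ and 12.57 and 12.62 in db/db (difference -0.22, 95% interval -0.47 to 0.03; adjusted p = 0.294 and 0.242). Normalized again without misread stretches, 4 of the 8 were called lower by quantile normalization, 4 by cyclic loess and 1 by median scaling, with differences down to -0.81. These features were read on the same arrays and are not replicates of each other.

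**Figure D4:**
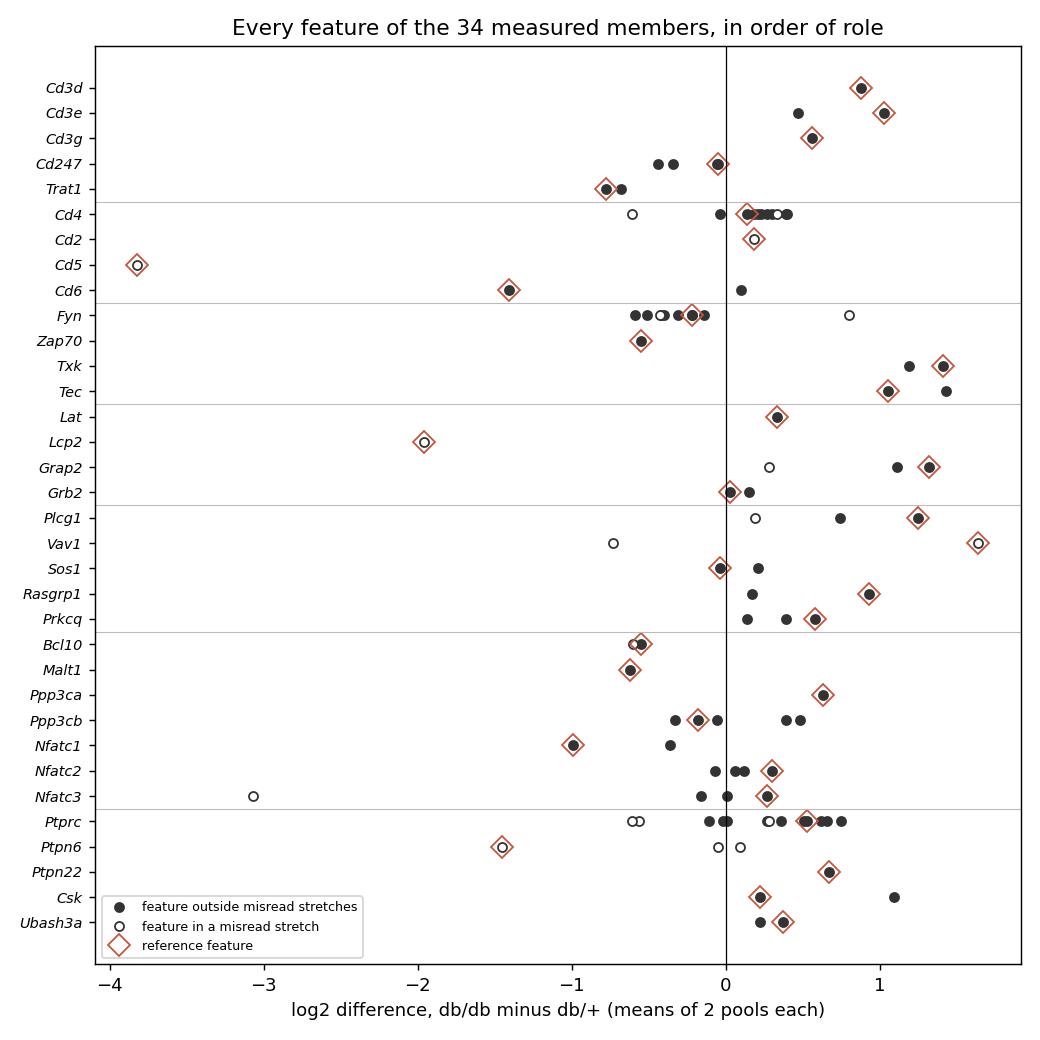
The log2 difference, db/db minus db/+, of each of the 99 features of 34 genes (filled points outside misread stretches, open points inside), with the feature that stands for each gene in a red diamond and grey lines between roles. The features of Txk, Tec, Trat1 and Fyn outside misread stretches keep to 1 side of 0, and the most negative values, of Cd5, Nfatc3 and Lcp2, lie in misread stretches.

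Of the 4 adaptor genes only Grap2 was called, in the second fit. Grap2 encodes GADS, which bridges LAT and SLP-76. It read 12.14 and 12.33 in db/+ and 13.54 and 13.58 in db/db, 2.50-fold higher (means 12.23 ± 0.13 and 13.56 ± 0.03, SD, n = 2; 95% interval 1.03 to 1.62; adjusted p = 0.0507 and 0.0156). A second feature outside misread stretches, on another accession, differed by 1.11 (adjusted p = 0.0839 and 0.0288). Lat, the membrane scaffold, read 13.16 and 13.27 in db/+ and 13.50 and 13.59 in db/db (difference 0.33, 95% interval 0.05 to 0.60; adjusted p = 0.215 and 0.141). Grb2, which links LAT to the RAS exchange factor SOS1, read 13.89, 13.85, 13.81 and 13.98, and its interval ran from -0.27 to 0.32 (adjusted p = 0.923 and 0.926). The single feature of Lcp2 lay in a misread stretch and read 14.12, 14.40, 14.02 and 10.58, low in db/db pool 2 alone.

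Plcg1, the phospholipase that LAT recruits, was called in both fits. It read 12.53 and 12.65 in db/+ and 13.83 and 13.87 in db/db, with means of 12.59 ± 0.08 and 13.85 ± 0.03 (SD, n = 2). The difference was 1.25 in log2 or 2.38-fold (95% interval 0.99 to 1.52; adjusted p = 0.0466 and 0.0156), and 1.09 to 1.13 in the rescaled sets, all called. It lost the call over all features when the dim features were left out of that fit, and under median scaling or cyclic loess of all spots. A second feature was called as well (difference 0.74; adjusted p = 0.0765 and 0.0298), although it lay below the background level in every pool, at 6.63, 6.57, 7.29 and 7.40.

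Rasgrp1, the diacylglycerol-activated RAS exchange factor, read 12.82 and 13.18 in db/+ and 13.95 and 13.91 in db/db, 1.90-fold higher (95% interval 0.53 to 1.33; adjusted p = 0.104 and 0.0392), on 1 of 2 features. The other feature was at background in all pools. Sos1, the second RAS exchange factor of the set, did not separate the groups at 10.75, 11.05, 10.97 and 10.75 (difference -0.04, 95% interval -0.45 to 0.36; adjusted p = 0.913 and 0.907), and read -0.35 to -0.32 in the rescaled sets. Prkcq, the protein kinase C theta, read 13.79 and 13.11 in db/+ and 14.17 and 13.90 in db/db. The db/+ pools differed by more than the group means did (difference 0.58, 95% interval -0.11 to 1.28; adjusted p = 0.400 and 0.265). Vav1, an exchange factor for RAC, had its 2 features in misread stretches, and they differed by 1.64 and -0.73.

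Downstream of Prkcq, the readable features of Malt1 and Bcl10 read lower in db/db and neither was called in either fit. Malt1, a protease of the NF-kB branch, read 15.05 and 15.18 in db/+ and 14.38 and 14.61 in db/db (difference -0.62, 95% interval -0.96 to -0.28; adjusted p = 0.134 and 0.0606). Bcl10, its partner, read 10.30, 9.78, 9.51 and 9.46 (difference -0.55, 95% interval -1.08 to -0.03, limma adjusted p = 0.304 and 0.177). It was called lower in 1 of the 3 rescaled sets, by median scaling (limma adjusted p = 0.0314). A brighter Bcl10 feature lay in a misread stretch and read 12.54 and 13.15 in db/+ and 10.45 and 14.04 in db/db. Of the calcineurin catalytic subunits, which dephosphorylate NFAT, Ppp3ca read 11.24, 11.41, 12.06 and 11.86 (difference 0.63; adjusted p = 0.128 and 0.0573). Ppp3cb, on its brightest of 5 features, differed by -0.18 (adjusted p = 0.410 and 0.357), and its features ranged from -0.33 to 0.48.

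Nfatc1, the NFAT factor that is itself induced after receptor stimulation, was lower in db/db. It read 13.54 and 13.28 in db/+ and 12.47 and 12.38 in db/db, 1.98-fold lower (means 13.41 ± 0.18 and 12.42 ± 0.06, SD, n = 2; 95% interval -1.33 to -0.65; adjusted p = 0.0785 and 0.0281). The difference was -1.17 to -1.13 in the rescaled sets, all called. Its second feature, on another accession, read 12.75, 12.68, 12.31 and 12.41 and was not called (difference -0.36; adjusted p = 0.178 and 0.112). Nfatc2 and Nfatc3, the family members present in resting T cells, lay closer to the background level and were not called. Nfatc2 read 8.49, 8.28, 8.69 and 8.68 (adjusted p = 0.293 and 0.204), with its other 3 features at background. Nfatc3 read 9.34, 9.18, 9.69 and 9.38 (adjusted p = 0.447 and 0.344). A brighter Nfatc3 feature lay in a misread stretch and differed by -3.07.

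None of the 4 phosphatase and inhibitor genes with a readable feature was called in either fit. Ptprc, which encodes CD45, the phosphatase that keeps LCK and FYN active, had 10 features outside misread stretches, and they differed by -0.11 to 0.75 with adjusted p of at least 0.101 in the second fit. Of these, 2 were called higher in 1 rescaled set each (adjusted p = 0.0455 by cyclic loess and 0.0397 by median scaling). The brightest read 14.84 and 15.58 in db/+ and 15.70 and 15.78 in db/db, where 1 array was at the scanner maximum (difference 0.53, 95% interval -0.17 to 1.23; adjusted p = 0.445 and 0.314). Ptpn22, a phosphatase that opposes ZAP70 and LCK, read 13.85, 14.19, 14.69 and 14.68 (difference 0.67, 95% interval 0.28 to 1.06; adjusted p = 0.154 and 0.0700). Csk, the kinase that holds LCK inactive, read 13.42, 13.54, 13.77 and 13.64 (difference 0.22; adjusted p = 0.380 and 0.305). Its dimmer feature, on another accession, read 8.57, 8.82, 9.44 and 10.12, a difference of 1.09 (adjusted p = 0.185 and 0.0807), and was called higher in 1 rescaled set, by median scaling (adjusted p = 0.0343). Ubash3a, a suppressor of receptor signalling, read 10.38, 10.71, 10.55 and 11.26, with overlapping groups (adjusted p = 0.582 and 0.498). The 3 features of Ptpn6, which encodes the phosphatase SHP-1, lay in misread stretches, and the brightest read 13.42, 13.73, 10.46 and 13.79.

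Before rescaling, features of 1 gene mostly differed in the same direction. They were read on the same arrays, and the share among all genes is not given here. After quantile normalization without misread stretches Grb2 (0.02 and -0.08) and Prkcq (-0.06 to 0.48) had both signs, while Sos1 (-0.05 and -0.33) no longer did. The counts that follow are those before rescaling. Of 15 genes with at least 2 features above background outside misread stretches, 11 had all differences of the same sign, the exceptions being Cd4, Ppp3cb, Ptprc and Sos1. Leaving out each array in turn kept the difference of Txk between 1.27 and 1.55, of Grap2 between 1.23 and 1.41, of Plcg1 between 1.19 and 1.31, of Tec between 0.88 and 1.22 and of Rasgrp1 between 0.75 and 1.11. For the lower genes the range was -1.11 to -0.86 for Nfatc1, -0.85 to -0.71 for Trat1 and -0.61 to -0.49 for Zap70. In each of these 8 genes the pools of the groups were apart, so leaving out 1 array could change the size of a difference but not its direction.

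A list of 72 other genes of the pathway had 56 genes with a feature outside misread stretches, and 14 of them were called higher and none lower in the second fit, beside the 12.8% and 2.68% of genes above background. In the 3 rescaled sets the counts were 8, 7 and 8 higher and 0 lower, beside 8.36%, 8.42% and 8.48% higher and 5.57%, 5.52% and 4.47% lower among genes above background. At an unadjusted p below 0.05 limma found 1 lower in the second fit and 2 to 3 in the rescaled sets. By the fit over all features 2 of the 56 were called, both higher. Sla2, an adaptor that dampens receptor signalling, read 10.41 and 10.32 in db/+ and 11.81 and 11.78 in db/db, 2.70-fold higher (adjusted p = 0.0409 and 0.0146). Pik3r1, a regulatory subunit of PI3-kinase, was 2.14-fold higher (adjusted p = 0.0463 and 0.0156). Itpr2, an inositol trisphosphate receptor that releases calcium, was 2.02-fold higher (adjusted p = 0.0621 and 0.0211). The adaptors Skap1 and Fyb, which couple the receptor to integrins, were 1.98-fold and 3.99-fold higher (adjusted p = 0.0639 and 0.0216, and 0.0776 and 0.0238). Cd8a, the coreceptor of CD8 T cells, was 2.90-fold higher (adjusted p = 0.0751 and 0.0236). Vav3, a RAC exchange factor, and Stim1, the calcium sensor of the endoplasmic reticulum, were 1.72-fold and 1.76-fold higher (adjusted p = 0.0776 and 0.0296, and 0.0930 and 0.0351).

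Summed markers of several other cell types were higher in both db/db pools than in both db/+ pools. Those of dendritic cells and regulatory T cells overlapped between the groups. Most of the regulatory T cell sum came from its brightest gene, Tnfrsf18. It read 15.14 and 14.78 in db/+ and 13.75 and 14.57 in db/db. Of the 7 genes in that sum, Foxp3 and Ikzf4 had both db/db pools above both db/+ pools (differences 0.74 and 0.42). Tnfrsf18 and Nrp1 had them below (differences -0.8 and -0.88), and the other genes overlapped. The erythroid sum was lower in db/db, but it mainly followed its brightest gene, Tfrc. That gene read 15.15 and 14.99 in db/+ and 14.67 and 14.68 in db/db. Of the 4 erythroid genes in the sum, 2 had both db/db pools below both db/+ pools. Hba-a1 alone had them above, at 10.83 and 12.15 in db/+ and 13.17 and 13.10 in db/db. The part of other cells in the differences above was not tested. In the second fit 12.8% of genes above background were called higher and 2.68% lower, and the marker counts here come from that fit alone. Of 11 neutrophil markers outside misread stretches 7 were called higher. The summed normalized intensity of the list was 7721 and 20684 in db/+ and 65975 and 69827 in db/db. For 8 macrophage and monocyte markers, 2 of them called higher, the sum was 5812 and 12830 in db/+ and 33314 and 32099 in db/db. Of 14 B cell markers 4 were called higher, with sums of 12982 and 18326 in db/+ and 27938 and 22094 in db/db, while Pax5, Blk and Cr2 were at background in every pool. Of 7 CD8 and cytotoxic T cell markers 2 were called higher, Cd8a and Cd8b1, with sums of 38721 and 47966 in db/+ and 63394 and 63201 in db/db. The lists for NK cells, dendritic cells, regulatory T cells, gamma delta T cells, erythroid cells and platelets had no called gene. Their sums were 19011 and 31529 in db/+ and 35982 and 36291 in db/db for NK cells, and 5378 and 6333 against 12091 and 17190 for platelets. For dendritic cells they were 4633 and 6525 against 7999 and 6002, for regulatory T cells 49053 and 34336 against 26183 and 36164, and for erythroid cells 38469 and 37889 against 35725 and 35505. Both gamma delta T cell markers were at background. Of 9 T cell markers outside the set 3 were called higher, Thy1, Il7r and Bcl11b, and 1 lower, Cd40lg, which was at background.

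The Y-linked Eif2s3y read 5.97 and 6.68 in db/+ and 13.95 and 13.77 in db/db, and Xist read 14.33 and 13.88 against 10.06 and 6.60, so that transcripts that differ between the sexes also separated the groups. The labels give no sex, and the genotype and these transcripts cannot be told apart in 4 pools. Lepr was at background in all pools, at 6.23 to 6.42, and did not check the labels.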

How the data were processed

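The authors deposited 2 tables for the 4 arrays. The raw table holds the median foreground intensity of each of 45220 features on a linear scale, per the file headers, with no background column. The deposited value table holds log2 intensities and matched log2 of the raw table after quantile normalization to within 5.00e-09. The submitters' processing notes name limma and no further step. Median raw intensities ran from 102 to 254, and 2 to 112 features per array stood at the scanner maximum of 65535. Depth as a read count does not apply, and the number of arrays limits the precision.

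Row numbers are not feature numbers. The layout that joins them to the platform annotation was inferred earlier from these data. Under it, 2293 features of 218 accessions deviated within an accession by a median of 0.138 log2 units, against 1.10 when the row number was used directly. All gene names depend on this layout. The annotation gave 33653 features 1 symbol, 56 several and the rest none.

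Intensities were corrected (limma 3.58.1, R 4.3.3) by normexp with an offset of 50, log2 transformed and quantile normalized, and db/db was tested against db/+ on every gene feature, two-sided, with Benjamini-Hochberg adjustment over all of them. An exact permutation test of 2 against 2 pools cannot go below p = 0.333. A scan line of 266 spots was called misread where over 5% of its spots on any array departed by more than 2 log2 units from the other 3 arrays' median. This held for 40 of 170 lines. The same call was made for a window of 15 spots with at least 3 such spots. Because the rule selects on disagreement between arrays, the second fit has a smaller residual spread by construction. The series text names 2 independent experiments, and p-values measure the spread between the 2 pools of a group. Only the fit over all gene features was run on simulated data, with independent noise and no misread stretches. The second fit was not checked in this way.

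Genes were chosen, and the lists of other pathway genes and of cell markers written, with earlier results of these data known. Values in each pool were given for genes with a called feature and for fixed central genes (Cd3d, Cd3e, Cd3g, Cd247, Cd4, Zap70, Lat, Lcp2, Plcg1, Prkcq, Ptprc), and for others where room allowed; up to 8 called genes of the other list were named, smallest p first. Alternatives were other background correction, scalings and filters, the replicate block, each pool left out and other misread rules.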

Additional observations from a re-analysis of the deposited data

How the results depend on the processing

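The number of called features moved with the processing. Over all gene features 336 were called (195 higher, 141 lower), 396 under median scaling (126 higher, 270 lower), 149 under cyclic loess (58 higher, 91 lower), 196 without dim features, and 0 with the replicate block (limma; 5146 at an unadjusted p below 0.05). Among features of the pathway the counts were 2, 2, 1, 1 and 0. With no background correction 377 gene features were called (238 higher, 139 lower), 3 of them of the pathway. Without the misread stretches the counts were 2089 and 12, and 2173 and 13 when the stretches were chosen only from differences within a genotype. Normalized again without the stretches they were 1927 and 18 by quantile, 1952 and 14 by median scaling and 1742 and 18 by cyclic loess. With the first scaling kept and both the stretches and dim features left out they were 2033 and 11. With the stretches left out and the replicate block they were 445 and 3. Leaving out any pool gave counts of 0 in both fits, with 4208 to 7565 gene features at an unadjusted p below 0.05. Median scaling gave limma an unlimited prior, so that every feature shared 1 spread and calls such as that of Cd6 followed the difference alone.

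Differences were recomputed for the fixed central genes and for genes with a called feature outside misread stretches. Of 345 such differences 274 kept their sign and call, 50 gained a call, 12 lost it and 9 changed sign. The 9 sign changes were those of Cd4 and Cd247. The Cd4 difference was -0.11 under median scaling and -0.10 under cyclic loess. It was -0.17 after quantile or median scaling without the stretches, -0.16 after cyclic loess without them and -0.02 to 0.30 with a pool left out. The Cd247 difference was -0.10 to 0.01 with a pool left out. Genes outside this set were not counted. Among them Grb2 turned from 0.03 to between -0.08 and -0.02 in the rescaled sets, and Nfatc3 from 0.27 to between -0.02 and 0. The replicate numbers were not tied to experiments by the labels. Deviations of same-numbered pools correlated at r = -0.047 over 13702 gene features, so the block is given here only. With the stretches left out and the block, Grap2 (adjusted p = 0.0463) and Plcg1 (0.0465) kept their call on the brightest feature, and Txk (0.0527), Nfatc1 (0.0574), Tec (0.0584), Rasgrp1 (0.0728), Trat1 (0.0729) and Zap70 (0.104) lost it. The second Txk feature was called (0.0486). The cause of the lower counts was not tested. Signals near the background level limit Nfatc2, Nfatc3 and Cd4.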
